A study of Saccharomyces cerevisiae with 31 samples.

Results

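The genes described here encode the enzymes that bring glucose into glycolysis in budding yeast, *Saccharomyces cerevisiae*: the hexokinases and glucokinases HXK1, HXK2, GLK1 and EMI2, the phosphoglucose isomerase PGI1, and the phosphofructokinase subunits PFK1 and PFK2. They were chosen by their place in the pathway, with earlier results of these data known. They are 7 systematic identifiers looked up in the authors' 3 deposited tables, out of 5668 genes adjusted in the spt6-1004 comparison. Spt6 is a histone chaperone that accompanies elongating RNA polymerase II, and Spn1 is its binding partner. The series asks what casein kinase 2 does to Spt6 function by phosphorylating it. RNA was measured in 3 libraries of each of 4 genotypes: wild type (WT), spt6-1004, a mutant allele of SPT6, spt6-S8A, in which serines of Spt6 are replaced by alanine, and spt6-S8E, in which they are replaced by glutamate. All strains grew in rich glucose medium (YPD) at 30 °C and were harvested at an optical density of 1, after dilution to 0.2.

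A hexose must be phosphorylated before it can be used. Hexokinases act on glucose, fructose and mannose, whereas glucokinase acts on glucose and mannose and not on fructose. The glucose 6-phosphate formed either leaves for storage sugars and the pentose phosphate pathway or is turned by PGI1 into fructose 6-phosphate, which phosphofructokinase then commits to glycolysis. In cells growing on glucose HXK2 is the main hexose kinase, while HXK1 and GLK1 are known as genes that glucose represses.

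The values are log2 fold changes of each mutant against WT from the authors' fit, each with its standard error (SE). A gene is called "listed" where the authors' table for that mutant holds it, which means an adjusted p under 0.05 (DESeq2). Values per library were not analysed here, so the spread between libraries enters only through the SE and overlap between libraries cannot be shown. The depth of each library is unknown. The labels do not say whether the 3 libraries of a genotype came from separate cultures, so the p-values reflect the spread among these libraries alone, which may be technical.

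In spt6-1004 the 5 listed genes held rises and falls, and of the kinase genes only HXK1 and GLK1 had a value. A hexokinase and a glucokinase gene, HXK1 and GLK1, rose to 2.09-fold and 2.90-fold of WT, and PGI1, PFK1 and PFK2, which act just after them, fell to 55.0%, 48.2% and 53.2% of WT. HXK2 and EMI2 were not listed. Thus 5 of 7 genes were listed, 2 higher and 3 lower, where 12.2% of all adjusted genes were listed, 5.63% higher and 6.62% lower. Because the genes were chosen with earlier results known, these counts are a description and not a test. The median of the 5 listed genes, which is the value of PGI1, was -0.86, and that of all 694 listed genes was -0.83. Both sets hold rises and falls, so neither median describes a typical change. Over all listed genes the median was 1.64 among rises and -1.29 among falls. In spt6-S8A 1 of the 7, GLK1, was listed, and in spt6-S8E none was.

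**Figure D1:**
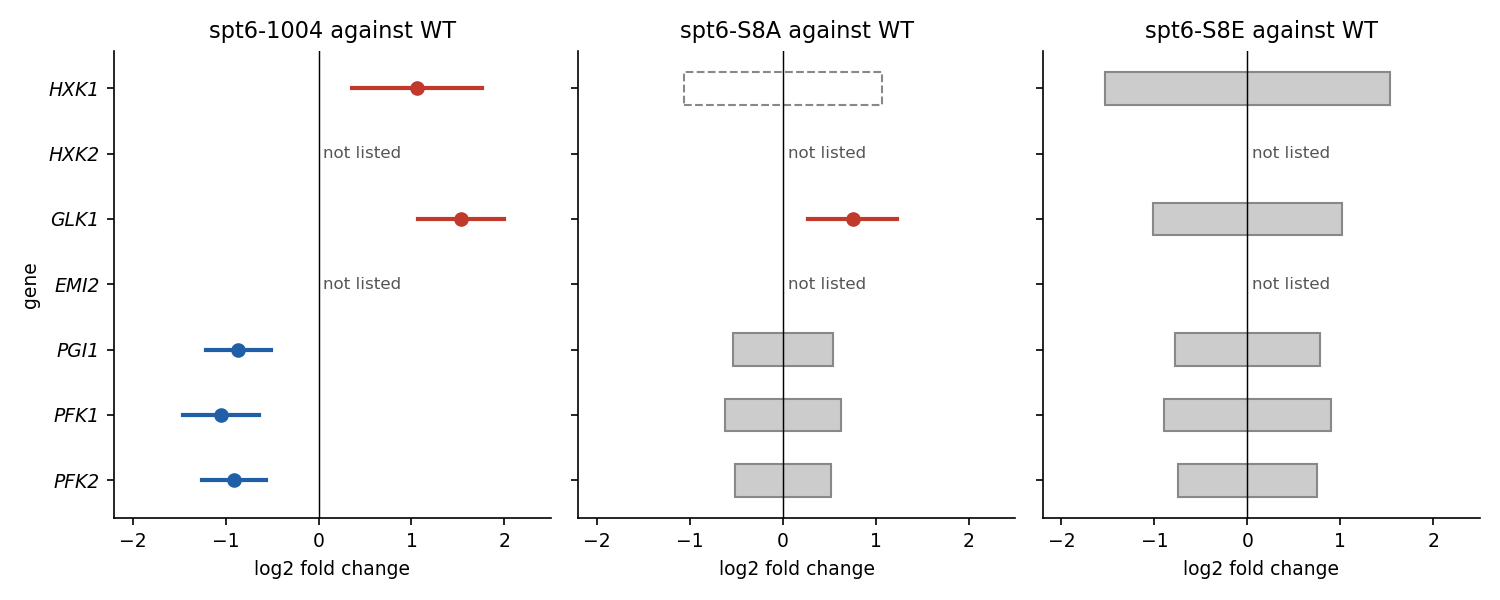
Log2 fold changes of the 7 genes (rows) against WT, 1 panel per mutant. Points are the authors' deposited estimates with 95% intervals from their standard errors (red higher, blue lower); grey boxes are the range within which an unlisted gene would have stayed, from the listing threshold and its standard error in spt6-1004, and the dashed box marks HXK1, for which it is not known whether it was adjusted in spt6-S8A. HXK1 and GLK1 lie above 0 and PGI1, PFK1 and PFK2 below 0 in spt6-1004, and GLK1 alone has an estimate in spt6-S8A.

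The first step of the pathway is catalysed by the hexose kinases. GLK1 (YCL040W), which encodes glucokinase, lies on chromosome III from 50838 to 52340 (R64). In the authors' deposited table it stood at 1.54 in spt6-1004 (SE 0.24, 95% interval 1.07 to 2.00, adjusted p = 5.02e-09, Wald test of DESeq2). It ranked 108 of 694 genes by adjusted p, and 177 of 319 higher genes by the size of its rise. GLK1 was therefore among the more precisely measured rises and not among the steepest. An annotated reading frame, YCL042W, overlaps the start of GLK1 by 106 bp on the same strand, from 50584 to 50943, so reads in that stretch cannot be told apart; YCL042W itself was not listed.

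HXK1 (YFR053C), hexokinase isoenzyme I, lies on chromosome VI from 253592 to 255049 (R64). It stood at 1.06 in the authors' deposited table for spt6-1004 (SE 0.36, interval 0.36 to 1.76, adjusted p = 0.0275, Wald test of DESeq2). On the linear scale the rise was 2.09-fold, with an interval of 1.29 to 3.39. HXK1 had the weakest evidence of the 5 listed genes, at rank 589 of 694 by adjusted p, and it was no longer called at an adjusted p under 0.01. At that threshold 1 of the 7 genes was higher, against 3.62% of all adjusted genes, and 3 were lower, against 4.55%. Its error was wide among listed genes of its level. Of 202 other listed genes with a base mean within 1.5-fold of its 28.4, 16 had a larger SE, and their median SE was 0.32. Listing itself needs a change that is large against its SE, so this does not compare HXK1 with all genes of its level. The rises of HXK1 and GLK1 could not be separated, since their difference was -0.47 with an interval of -1.31 to 0.37.

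HXK2 (YGL253W), hexokinase isoenzyme II, which also takes part in glucose repression with the repressor Mig1, lies on chromosome VII from 23935 to 25395 (R64). EMI2 (YDR516C), a paralog of GLK1 named for a role in the early induction of meiosis, lies on chromosome IV from 1474974 to 1476476. Neither was in any of the authors' tables, so no level, fold change or error is known for them. If they were among the 5668 genes adjusted for spt6-1004, their p was above 0.00613 and their Wald statistic, the fold change divided by its SE, was below 2.74 in size. HXK1, at a Wald statistic of 2.98, was not far past that limit. A listed HXK1 and an unlisted HXK2 therefore do not show that these paralogs responded differently, and that difference could not be tested. The coding lengths of HXK1 and HXK2 are 1458 and 1461 bp, and GLK1 and EMI2 are both 1503 bp long. Reads that match both members of such a paralog pair can be split between them, and the sources used here do not say how the authors' counting did this.

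The next step belongs to PGI1 (YBR196C), which turns glucose 6-phosphate into fructose 6-phosphate and back. It lies on chromosome II from 612236 to 613900 (R64). In the authors' deposited table it stood at -0.86 in spt6-1004 (SE 0.18, interval -1.22 to -0.51, adjusted p = 4.91e-05, Wald test of DESeq2). Its RNA was thus at 55.0% of WT, with an interval of 43.1% to 70.4%.

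Phosphofructokinase makes fructose 1,6-bisphosphate and is built from alpha subunits encoded by PFK1 (YGR240C) and beta subunits encoded by PFK2 (YMR205C). PFK1 lies on chromosome VII from 970771 to 973734 and PFK2 on chromosome XIII from 671887 to 674766 (R64). PFK1 stood at -1.05 in the authors' deposited table for spt6-1004 (SE 0.21, interval -1.46 to -0.64, adjusted p = 1.50e-05, Wald test of DESeq2), or 48.2% of WT. PFK2 stood at -0.91 in the same deposited table (SE 0.17, interval -1.25 to -0.57, adjusted p = 5.54e-06, Wald test of DESeq2), or 53.2% of WT. The fall of both subunit genes differed by 0.14 on the log2 scale, and the interval of PFK1 minus PFK2 ran from -0.68 to 0.39. PGI1 minus PFK1 was 0.19 (interval -0.35 to 0.73), and PGI1 minus PFK2 was 0.05 (interval -0.44 to 0.54). No pair of these 3 genes could thus be separated, although differences of up to about 0.7 between them fall inside the intervals. These intervals take the errors of different genes as independent.

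The falls were small next to others in this mutant but measured closely. Of 375 genes listed as lower, PFK1 ranked 286, PFK2 333 and PGI1 341 by the size of the change. PFK2, PGI1 and PFK1 had the 9th, 12th and 33rd smallest SE of the 694 listed genes. Their base means, the authors' averages over all libraries, were 166.3 for PFK2, 145.1 for PGI1 and 109.3 for PFK1, against a median of 21.2 over all listed genes. HXK1 and GLK1, at base means of 28.4 and 74.2, had lower averages. The sources used here do not state the unit of the base mean. It is used as a guide to precision and, for spt6-S8A, to which genes may have been adjusted. Among listed genes with a base mean of at least 100, 31 were lower and 18 higher. The level at which PGI1, PFK1 and PFK2 lie thus holds genes of both directions, with more falls. Of the other listed genes within 1.5-fold of the base mean of PFK1, 44 were lower and 15 higher. For PGI1 these counts were 20 and 13, and for PFK2 13 and 11. For the rises of GLK1 and HXK1 they were 81 and 22, and 144 and 58, so most listed genes near their level fell. Of all 694 listed genes, 375 were lower and 319 higher.

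**Figure D2:**
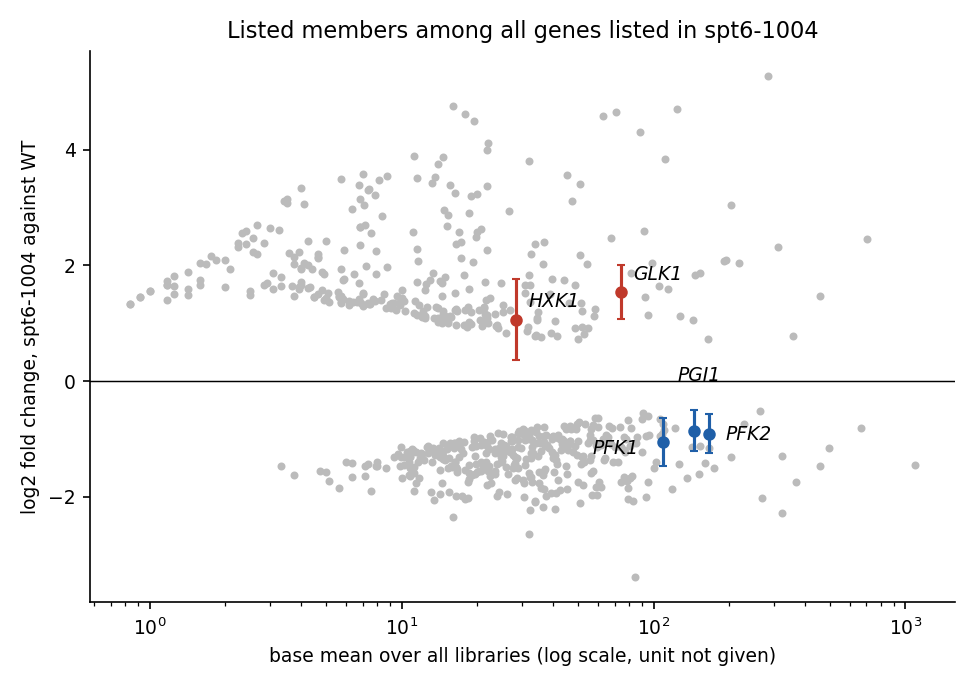
Log2 fold change in spt6-1004 against WT (y axis) and base mean over all libraries (x axis, log scale, unit not given) of all 694 genes in the authors' deposited table (grey). The 5 listed genes of hexose phosphorylation and upper glycolysis are drawn with 95% intervals, with GLK1 and HXK1 above 0 and PFK1, PGI1 and PFK2 below 0 at base means of 109.3 to 166.3.

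GLK1 was the gene of the group that was also listed without the phosphorylated serines. In spt6-S8A it stood at 0.75 in the authors' deposited table (SE 0.24, interval 0.27 to 1.23, adjusted p = 0.0447, Wald test of DESeq2), a 1.68-fold rise with an interval of 1.21 to 2.34. That is 1 of 7 genes listed, where 5.34% of the 431 genes adjusted for spt6-S8A were listed and 3.25% were listed as higher. The call was a narrow one: GLK1 held rank 20 of the 23 listed genes by p and rank 13 of 14 higher genes by size, and it ended at an adjusted p under 0.01. It also depends on the number of genes adjusted, since over 5668 genes, as for spt6-1004, it would need at least 236 genes with a p as small as its own.

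The rise of GLK1 was smaller in spt6-S8A than in spt6-1004. The difference was 0.78 on the log2 scale (spt6-1004 minus spt6-S8A, interval 0.12 to 1.45; z test on the deposited DESeq2 errors, adjusted p = 0.0375 over the 23 genes listed for both mutants). Both comparisons use the same WT libraries. Allowing for this with an error correlation of 0.5 narrowed the interval to 0.31 to 1.26 and gave an adjusted p = 0.00198 (z test). In the same test 14 of the 23 genes passed with independent errors. The smaller change in spt6-S8A was not particular to GLK1, since the estimate was larger in size in spt6-1004 for 23 of the 23 genes. The log2 fold change of GLK1 in spt6-S8A was 48.9% of that in spt6-1004. By this share GLK1 was itself the median gene of the 23. The 3 genes nearest to GLK1 over the pair of log2 fold changes were RPN4, the transcription factor of proteasome genes, PEP4, the vacuolar protease A gene, and YGP1, a secreted glycoprotein gene, at distances of 0.29, 0.30 and 0.51. In the authors' deposited tables RPN4 stood at 1.76 in spt6-1004 and 0.93 in spt6-S8A. PEP4 stood at 1.24 and 0.73, and YGP1 at 2.04 and 0.84, in the same deposited tables. Likeness over 2 values says nothing of shared control.

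**Figure D3:**
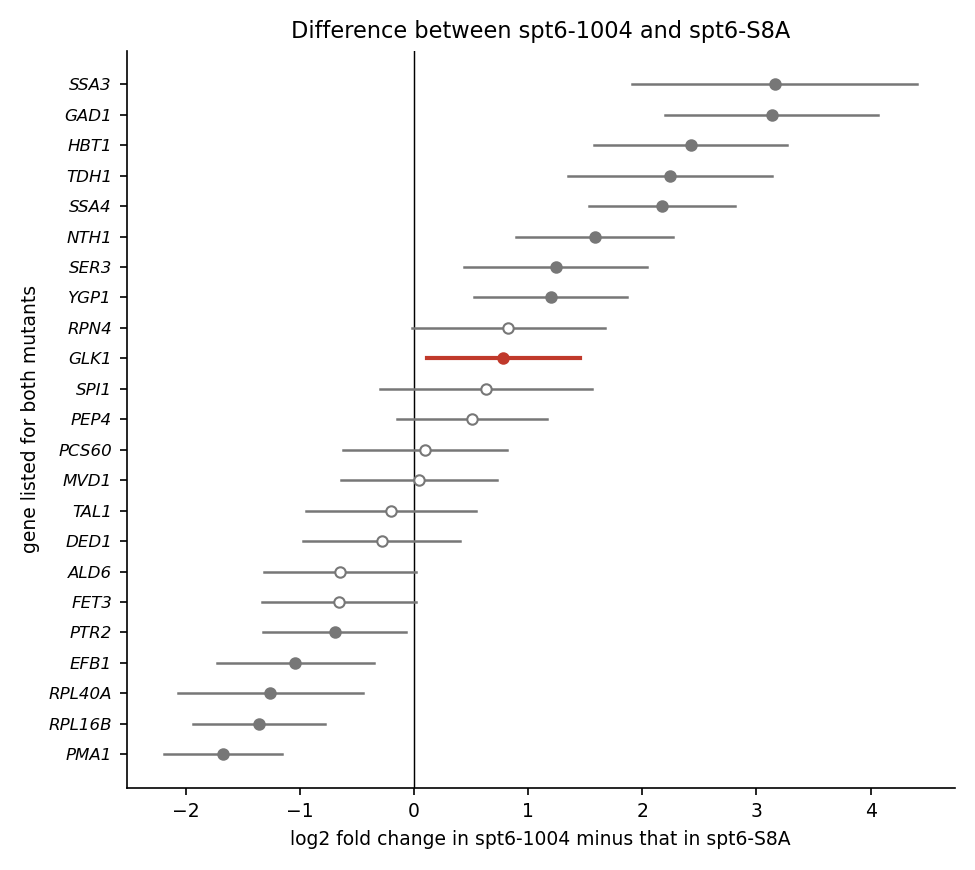
Difference between the log2 fold change in spt6-1004 and that in spt6-S8A (x axis) for the 23 genes listed for both mutants (rows), with 95% intervals that take errors as independent; filled points passed an adjusted p under 0.05 of the z test. GLK1, in red, lies at 0.78 with an interval of 0.12 to 1.45.

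Missing from the spt6-S8A table says more for some genes than for others. An adjusted gene is missing there if its p exceeded 0.00278, a Wald statistic below 2.99 in size. The 23 genes in both tables had spt6-S8A errors of 0.87 to 1.09 times their spt6-1004 errors, so the spt6-1004 error can stand in for the unknown one. With it, a change beyond 0.52 for PFK2, 0.54 for PGI1 and 0.63 for PFK1 on the log2 scale would have been listed, if these genes were among the 431 adjusted. Each limit is smaller than the fall of the same gene in spt6-1004, -0.91, -0.86 and -1.05 in that order. Smaller falls in spt6-S8A remain possible. For HXK1 the limit would be 1.07, as large as its rise of 1.06 in spt6-1004. Its base mean of 28.4 is also under 32.6, the lowest of any gene listed for spt6-S8A, so it may not have been adjusted at all.

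The spt6-S8E table holds 1 gene, 0.0176% of the 5668 adjusted, which is not a gene of this group. Its threshold was coarse, as a gene stays unlisted with a Wald statistic of up to 4.29 in size. Limits from the spt6-1004 errors were 0.75 for PFK2, 0.78 for PGI1, 0.90 for PFK1, 1.02 for GLK1 and 1.53 for HXK1 on the log2 scale. A rise of GLK1 as large as that in spt6-S8A, 0.75, would not have been listed for spt6-S8E. The tables therefore do not show whether alanine and glutamate at these serines differ in their effect on GLK1.

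The genes around this step of the pathway were followed in 8 lists with 76 genes in all. These lists too were written with earlier results of these data known, so their counts are a description only. Of these, 31 were listed in spt6-1004, 19 higher and 12 lower, against 5.63% and 6.62% of all adjusted genes. In lower glycolysis, which takes fructose 1,6-bisphosphate on to pyruvate, 7 of 11 genes were lower and 2 higher, with a median of -1.15 among those listed. The falls with the smallest adjusted p were those of ENO2, an enolase gene, at -1.75, and FBA1, the aldolase gene, at -1.47 in the authors' deposited table. The rises were those of TDH1, a glyceraldehyde-3-phosphate dehydrogenase isoform, at 3.56, and ENO1, the other enolase gene, at 0.91 in the authors' deposited table. TDH1 was also listed for spt6-S8A, at 1.32 in the deposited table, the only gene of the 8 lists that was. PGI1, PFK1 and PFK2 thus had the direction of most of lower glycolysis.

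Among the routes that draw glucose 6-phosphate away from glycolysis, most listed genes went the other way. Of 13 genes of these routes, 9 were higher and 1 lower, against 5.63% and 6.62% of all adjusted genes. The median was 1.92 among those listed, and SOL3, GND1 and TPS2 were not listed. GND2, the minor 6-phosphogluconate dehydrogenase, was at 4.49 and PGM2, the major phosphoglucomutase, at 3.99 in the authors' deposited table. The lower gene was PGM1, the minor phosphoglucomutase, at -2.06 in the same deposited table. TPS1, named here after its value was seen, makes trehalose 6-phosphate, an inhibitor of yeast hexokinases, and stood at 2.18 (SE 0.25) in the authors' deposited table. Of 4 genes that take fructose 6-phosphate towards mannose and chitin precursors 1 was listed, too few to set against the 12.2% of all adjusted genes. This gene, SEC53, the phosphomannomutase gene, was lower at -1.05 in the authors' deposited table (adjusted p = 0.0229, Wald test of DESeq2).

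**Figure D4:**
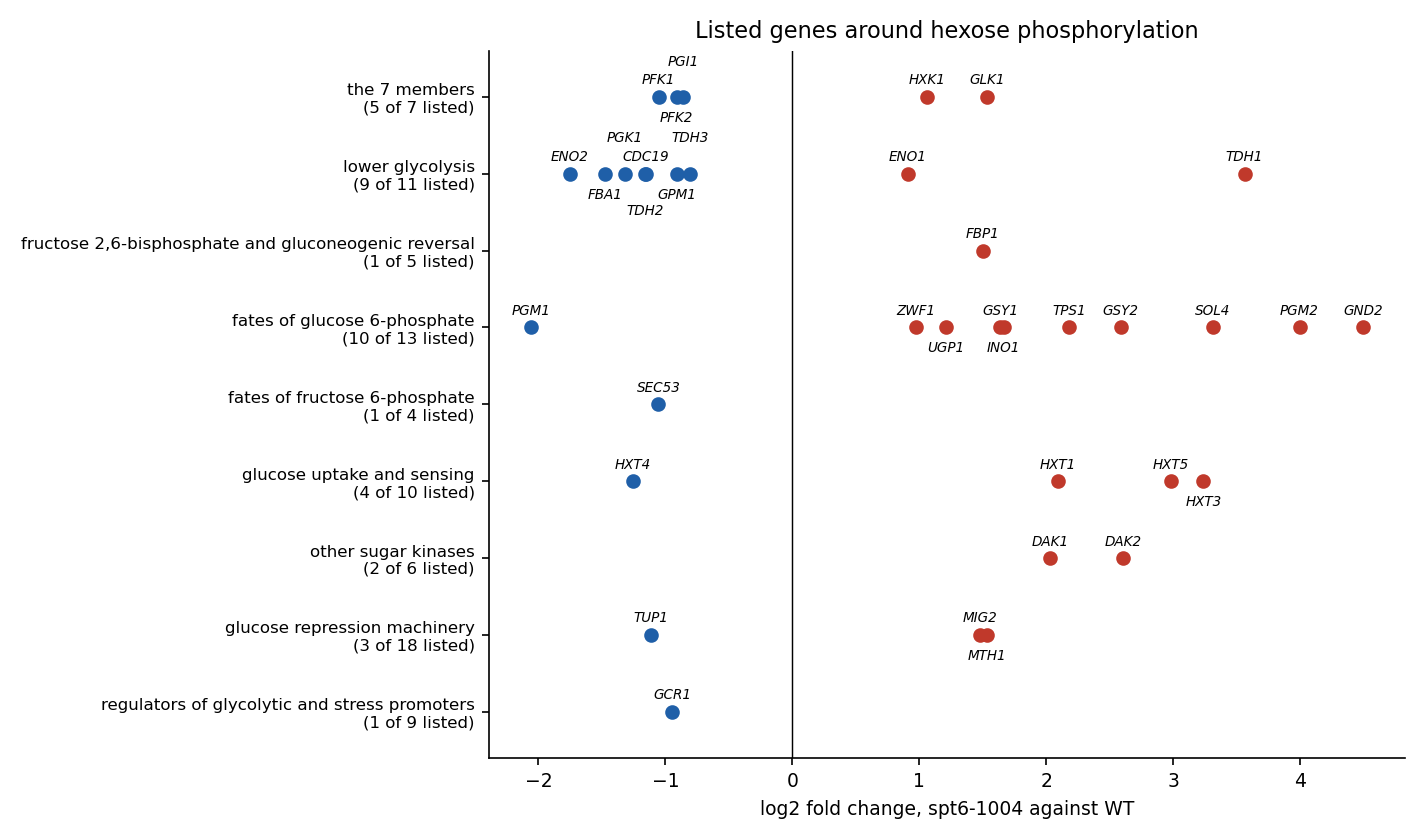
Log2 fold change in spt6-1004 against WT (x axis) of the listed genes in each list (rows; red higher, blue lower), with the number listed of the number in the list. The kinase genes HXK1 and GLK1 lie on the side of most genes that use glucose 6-phosphate elsewhere, and PGI1, PFK1 and PFK2 on the side of most of lower glycolysis.

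Of 5 genes of fructose 2,6-bisphosphate metabolism and gluconeogenesis 1 was listed, too few to set against the 12.2% of all adjusted genes. That gene, FBP1, the gluconeogenic fructose-1,6-bisphosphatase, was higher at 2.82-fold of WT in the authors' deposited table (SE 0.51 on the log2 scale, adjusted p = 0.0310, Wald test of DESeq2), with a base mean of 1.25. PFK26 and PFK27, which make the activator fructose 2,6-bisphosphate, were not listed. FBP26, which breaks that activator down, and PCK1, the gluconeogenic phosphoenolpyruvate carboxykinase gene, were not listed either. Among 6 other sugar kinase genes 2 were higher, against 5.63% of all adjusted genes. These were the dihydroxyacetone kinase genes DAK1 at 2.03 and DAK2 at 2.60 in the authors' deposited table. Their base means were 36.3 and 2.42. The hexokinase-like gene YLR446W was not listed, and neither was the galactokinase gene GAL1.

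Upstream of the kinases, 3 of 10 glucose transporter and sensor genes were higher and 1 lower, against 5.63% and 6.62% of all adjusted genes. HXT3 was at 3.24 and HXT5 at 2.98 in the authors' deposited table, and HXT4 at -1.25. Base means were 20.0 for HXT3, 6.33 for HXT5, 1.83 for HXT1, the other rise, and 40.0 for HXT4. The median over all listed genes was 21.2. Of 18 genes of glucose repression, 2 were higher and 1 lower, and this share of 16.7% listed was near the 12.2% of all adjusted genes. MTH1, a corepressor of HXT genes, stood at 1.53 (adjusted p = 0.0223) and MIG2, a repressor related to Mig1, at 1.47 (adjusted p = 0.0381) in the authors' deposited table (DESeq2). The base means of MTH1 and MIG2 were low, at 5.08 and 3.75. TUP1, whose product is a general corepressor, was at -1.11 (SE 0.23) in the same table, while SNF1, the kinase that relieves glucose repression, and MIG1 were not listed. Of 9 regulators of glycolytic and stress promoters 1 was listed, or 11.1%, which is again near 12.2%. This gene, GCR1, the main activator of glycolytic genes, was lower, at -0.95 (SE 0.29, adjusted p = 0.0149, Wald test of DESeq2) in the authors' deposited table. GCR2, RAP1, MSN2, MSN4 and HSF1 were not listed. Whether any of these regulators has a part in the values of HXK1, GLK1, PGI1, PFK1 or PFK2 was not tested.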

How the data were processed

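Only the authors' comparisons were used, 3 deposited tables of each mutant against WT. Per the labels' protocols, RNA was depleted of ribosomal RNA, ERCC spike-ins were added after that, and stranded libraries were made. The submitters' processing notes name DESeq2 1.14.1, Salmon 0.8.1, STAR 2.5.2b, SAMtools 1.3.1, bedtools 2.26, cutadapt 1.10 and the build sacCer3, with no role or order. Per the file headers, the columns are base mean, log2 fold change and its error, Wald statistic (a score), p-value and adjusted p-value. The deposited score equalled the log2 fold change over its error in 694 of 694, 23 of 23 and 1 of 1 rows. The sources used here do not say how spike-ins entered the scaling, so the values are relative to whatever scaling the authors used. The base mean times 12, the number of RNA libraries, was whole in 694 of 694, 23 of 23 and 1 of 1 rows. An average of unscaled whole counts over 12 libraries would have this property, and whether the counts were scaled is not known. The fold changes may be shrunken towards 0.

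Inverting the Benjamini-Hochberg formula gave the number of genes adjusted: 5668, 431 and 5668. With these, 694 of 694, 23 of 23 and 1 of 1 adjusted p-values came out as deposited; the last rests on its single row. The step was tested on simulated data. It was assumed that spt6-S8A adjusted the genes above a minimum base mean. Intervals are 95% normal intervals from the deposited errors. The two-sided z test between mutants ran over all 23 genes in both tables, with Benjamini-Hochberg adjustment (scipy 1.17.1). Lists were described by counts, with no test. Named were all 7 genes, from each list the 2 rises and 2 falls of smallest adjusted p and any gene also listed for another mutant, and the 3 genes nearest to GLK1. The genes and lists were chosen with earlier results of these data known. Coordinates and coding lengths are from RefSeq assembly R64 (the same assembly as sacCer3); all 76 list genes matched it. The 19 immunoprecipitation and input samples were not analysed here.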

Additional observations from a re-analysis of the deposited data

Results flagged for a closer look

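The rise of GLK1 differed between the mutants by the z test: 0.78 on the log2 scale (spt6-1004 minus spt6-S8A, adjusted p = 0.0375), from 1.54 in spt6-1004 and 0.75 in spt6-S8A in the authors' deposited tables. This was not particular to GLK1: 14 of the 23 genes tested passed, and 23 of 23 had the larger estimate in size in spt6-1004. A gene enters this test only if it was listed for both mutants, and the comparisons share their WT libraries.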

How the results depend on the processing

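At an adjusted p under 0.01, the count of higher genes of the group in spt6-1004 was 1 instead of 2, and that in spt6-S8A 0 instead of 1. With a minimum size of 1 for the log2 fold change, lower genes numbered 1 instead of 3 in spt6-1004 and higher genes 0 in spt6-S8A. At base means of at least 100, higher genes numbered 0 in both mutants. A minimum base mean of 10 changed none of these counts. Adjusted over 5668 genes, GLK1 in spt6-S8A had an adjusted p of at most 0.588, counted as 0 listed; genes outside the table, not analysed here, could lower it. The z test of GLK1 passed with independent errors and with errors correlated by 0.5, where 18 instead of 14 genes passed. No interval between genes of the group changed its side of 0 with correlations of 0.5 or -0.5. At an adjusted p under 0.01, 0 genes were left higher for fructose 2,6-bisphosphate and for glucose repression, and 0 lower for fructose 6-phosphate and for regulators. At that threshold the glucose 6-phosphate routes had 6 higher genes instead of 9. With that minimum size of 1, these routes had 8 higher genes and the regulators 0 lower. Lower glycolysis then had 1 higher gene, and 5 lower genes instead of 7. No paired analysis was possible because the tables hold no values per library, and for the same reason no replicate could be left out.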

Other observations

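The nearest annotated genes on either side of the 7 genes, 14 neighbours on 6 chromosomes at gaps of 123 to 3805 bp, included 0 genes listed in spt6-1004, where 12.2% of adjusted genes were. Whether the short reading frames among these neighbours were adjusted is not known. No adjacent gene of HXK1, GLK1, PGI1, PFK1 or PFK2 was listed, but 14 neighbours are too few to tell 0 from that share. In particular PDI1, divergent from GLK1 at a gap of 616 bp, was not listed, and neither was RPN12, which lies 262 bp past the end of HXK1.

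PGI1 and PFK2 had small errors among listed genes of their level. A change as small as theirs could be listed only with a small SE, so the counts that follow are partly fixed by the listing. Of 33 other listed genes with a base mean within 1.5-fold of that of PGI1, 32 had a larger SE, and of 24 such genes for PFK2, 23 did. For HXK1, 16 of 202 did. These counts are over genes of the authors' deposited spt6-1004 table and describe the spread between libraries only through the authors' fit.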
